A study of Homo sapiens with 18 samples.

Results

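Interferon-stimulated genes are the genes that cells switch on when an interferon binds its receptor. A list of 48 of them was followed, chosen by name with no threshold on their values, though with earlier results of these data known. All 48 have a row among the 26668 gene symbols of the deposited expression table. The question was whether knockdown of OFD1, a centrosome and cilium protein, came with an interferon response, which a hairpin RNA or damaged DNA can provoke. RNA-seq covered PANC-1, MIA PaCa-2 and PaTu 8988T, established human pancreatic cancer cell lines, with 3 control and 3 knockdown libraries in each line and 18 in all. Control libraries carry the name shControl, the genotype WT and no treatment in the labels, which give them no time. Knockdown libraries carry the genotype shOFD1 and doxycycline for 72 h. The study's methods describe cells with a doxycycline-inducible shOFD1 construct given DMSO or doxycycline, so whether the controls held a control hairpin or the uninduced OFD1 hairpin was not settled. Doxycycline, the hairpin and the loss of OFD1 cannot be told apart, since they share the same libraries. The study's methods say in general that assays were repeated independently, but no source says of these libraries that they came from separate cultures, and p-values then measure only the spread between these libraries, which may be technical. The source labels of PaTu 8988T replicates 2 and 3 in both groups name other lines, and the titles were followed.

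Type I and type III interferons act through the kinases JAK1 and TYK2. A complex with STAT2 and IRF9 then binds the interferon-stimulated response element (ISRE) in promoters. Interferon gamma acts through the gamma-activated site (GAS), and IRF1 is a classical target. Products of these genes sense or degrade viral RNA, block viral entry and translation, attach the ubiquitin-like protein ISG15 to other proteins, and load peptides on MHC class I molecules. In tumour cells, such genes are known to follow interferon from neighbouring cells as well as nucleic acids sensed within the cell.

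Promoter sequences are shown because the interferon elements are what the members should have in common, and no expression value was used to find them. Of the 48 members, 41 matched an entry of the RefSeq promoter table (GRCh38.p14), with 55 windows of 300 bases that reach from 250 bases before a transcript start to 50 after it. The ISRE core was searched as GAAA, any 2 bases and GAAA again, and the GAS as TTCNNNGAA, on both strands. The ISRE letters were found in 30 of the 55 member windows (54.5%) and in 1255 of all 35116 windows (3.57%). The GAS letters were found in 13 member windows (23.6%) and in 2689 of all windows (7.66%). By gene, 26 of the 41 members (63.4%) and 1195 of 27305 genes in the table (4.38%) held the ISRE letters in at least 1 window. The first 6 lines show an ISRE match and the last 3 a GAS match, with the matched letters in capitals, on the strand of the gene and 5′ to 3′. In IFIT1, IFIT3, IFI27 and PSMB8 the ISRE letters stand on the opposite strand, so the capitals read as their reverse complement. Both kinds of match can share bases, as they do in the IFI27 window.
ISG15, chr1:1013382-1013407, plus strand: gggaaaggGAAACCGAAActgaagcc
IFIT1, chr10:89392499-89392524, plus strand: agctttagTTTCACTTTCccctttcg
IFIT3, chr10:89327867-89327892, plus strand: taaattagTTTCACTTTCcagtttcc
IFI27, chr14:94110620-94110645, plus strand: gtctgcagTTTCGGTTTCctggaaaa
B2M, chr15:44711371-44711396, plus strand: aagaaaagGAAACTGAAAacgggaaa
PSMB8, chr6:32844034-32844059, minus strand: tctgtggcTTTCGCTTTCacttcctc
OAS1, chr12:112906786-112906810, plus strand: gagcagagTTCAGAGAAaggctggg
IRF1, chr5:132490881-132490905, minus strand: agcctgatTTCCCCGAAatgacggc
IRF9, chr14:24161194-24161218, plus strand: cacgtgatTTCTGGGAAaaggccct
The windows of HLA-B, HLA-C, STAT2, SP100, TRIM25 and UBE2L6 held neither set of letters, which says only that these letters are not within those windows.

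Values are FPKM: a gene's reads divided by gene length and library size. Between 32486479 and 39797537 reads were counted per library. In each line, genes with a mean of at least 1 FPKM over its 6 libraries were tested with limma on log2(FPKM + 0.1), and a call is an adjusted p below 0.05. The added 0.1, a pseudocount, shrinks the fold changes of low genes. OFD1 had 5.50, 5.12 and 5.67 FPKM in the PANC-1 controls and 2.80, 2.27 and 2.58 FPKM in the knockdown libraries, a log2 fold change of -1.07 (adjusted p = 2.70e-06). It was also called lower in MIA PaCa-2 (-0.61, adjusted p = 0.0232, over 0.05 in 5 of the 6 fits that leave out a library) and in PaTu 8988T (-1.10, adjusted p = 5.47e-05). All 6 epithelial markers were above 1 FPKM in PANC-1. In MIA PaCa-2 only KRT8, KRT18 and KRT19 were, and in PaTu 8988T only EPCAM, KRT8 and KRT18. Among 7 fibroblast and endothelial markers, only COL1A1 was above 1 FPKM in PANC-1 (mean 24.2 FPKM), and none in PaTu 8988T. In MIA PaCa-2 only COL1A2 was (mean 183 FPKM), and it was called higher after knockdown (0.34, adjusted p = 0.0183). The leukocyte markers CD3E, MS4A1 and NKG7 were listed at 0 in all 18 libraries. Of the 9 leukocyte markers only CD68 was above 1 FPKM in PANC-1 and PaTu 8988T, and CD68 and PTPRC in MIA PaCa-2, where PTPRC rose too (0.81, adjusted p = 0.0312). Gene lengths behind the PANC-1 values differ from those behind the other lines for some genes, so FPKM levels were not compared between lines. MIA PaCa-2 control replicate 2 stood apart: its median distance from the other controls over the members was 0.399 on the log2 scale, against 0.187 and 0.197 for control replicates 1 and 3 and at most 0.128 for any library of the other groups. The counts of called MIA PaCa-2 members are therefore given with and without it. Other MIA PaCa-2 counts, such as those of separated libraries and of the other pathway lists, rest on all 6 libraries unless stated. In bulk RNA, fewer cells of a type and less RNA per cell cannot be told apart.

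Of the 48 genes, 44 reached the level for a test in at least 1 line and 31 in all 3. CMPK2, IFI44L, SAMD9L and XAF1 reached it in none, with at most 1.16 FPKM in any library. BST2, IFI27, OAS2 and RSAD2 were tested in MIA PaCa-2 alone, and MX1, the classical interferon-induced antiviral GTPase, in PaTu 8988T alone. MX1 had 0.347 to 1.11 FPKM over the PANC-1 libraries and 0.267 to 0.728 FPKM over those of MIA PaCa-2. IRF7 had 0 to 0.0124 FPKM in MIA PaCa-2, and MX2 was listed at 0 in all 6 PaTu 8988T libraries. Low level kept some classical members out of the PANC-1 test. MX1 had 0.461, 0.347 and 0.423 FPKM in the controls there and 0.975, 0.907 and 1.11 FPKM after knockdown. RSAD2, the antiviral enzyme viperin, had 0.00747, 0.0291 and 0.0938 FPKM in the controls and 0.439, 0.395 and 0.235 FPKM after knockdown. With no filter on low values, MX1 (1.11, adjusted p = 0.000693), RSAD2 (1.68, adjusted p = 0.00158) and SAMD9L (0.46, adjusted p = 0.0193) were called higher in PANC-1, and no such member was added in MIA PaCa-2 or PaTu 8988T. Between 58 and 20038 reads lay behind the tested members per library. IFITM3 and B2M were among the 3 members with the highest level in each line. IFITM3 (628 FPKM in the controls) and B2M (562) led in PANC-1, B2M (141), IFITM3 (128) and ISG15 (113) in MIA PaCa-2, and IFITM3 (730), IFITM2 (156) and B2M (138) in PaTu 8988T.

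Members were called in both directions in every line. In PANC-1, 37 were tested, 12 were higher after knockdown (32.4%), 13 were lower (35.1%) and 12 had no call. Of all 10902 genes tested there, 40.1% were higher and 32.2% were lower, so the share of higher members lay under that of all genes and the share of lower members close to it. Their median log2 fold change was 0.09, against 0.06 over all genes. In MIA PaCa-2, 41 were tested, with 14 higher (34.1%) and 6 lower (14.6%), where 18.7% of all 10758 genes were higher and 21.7% lower. The median was 0.26 against -0.03 over all genes. In PaTu 8988T, 36 were tested, with 4 higher (11.1%) and 7 lower (19.4%), where 20.9% of all 10698 genes were higher and 18.5% lower. There the median was -0.04 against 0.03 over all genes, and it was 0.00 without shOFD1 replicate 1.

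The libraries themselves showed the same split. Knockdown libraries lay wholly above the controls for 13 members and wholly below for 13 in PANC-1, where 41.7% and 33.4% of all genes did so. In MIA PaCa-2 they lay above for 20 of the 41 (48.8%) and below for 9 (22.0%), against 28.0% and 31.3% of all genes. In PaTu 8988T the counts were 4 above and 9 below of 36, against 27.9% and 24.0% of all genes. For a single gene, an exact two-sided permutation test of 3 libraries against 3 cannot give a p below 0.1.

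**Figure D1:**
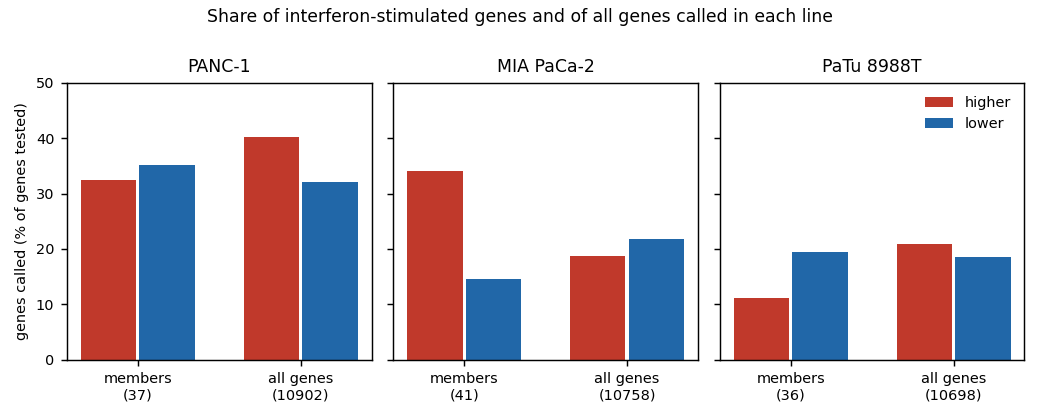
Share of genes called higher (red) or lower (blue) after OFD1 knockdown, in percent of the genes tested, for the interferon-stimulated genes and for all genes in each line, with the number tested in brackets. In MIA PaCa-2, 34.1% of the members were higher against 18.7% of all genes, while in PANC-1 and PaTu 8988T the higher share of the members (32.4% and 11.1%) lay under that of all genes (40.1% and 20.9%).

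Few changes were large, as over all genes. The study's threshold was a fold change above 2 or below 0.5. In PANC-1, 2 of 37 tested members passed it, both lower (IFIT2 and IFITM2), where 4.84% of all genes were lower and 1.75% higher past it. IFI27 alone of 41 passed in MIA PaCa-2, where 4.07% of all genes were higher and 3.68% lower. In PaTu 8988T, 0 of 36 passed, where 0.159% of all genes were higher and 0.841% lower. Counts this small cannot be told apart from the shares of all genes. The PaTu 8988T count was also 0 at an unadjusted p below 0.05 by limma and with voom weights on recovered reads. Without PANC-1 shControl replicate 1, IFIT2 alone passed. IFI27 did not pass without MIA PaCa-2 shControl replicate 1 or 3 or shOFD1 replicate 1 or 2 (count 0), and 3 members passed without shControl replicate 2 (IFI27, IFIT5 and PSMB8). No member was called in the same direction in all 3 lines by limma. That count was 0 for higher and 0 for lower, also at an unadjusted p below 0.05 and with voom weights, where 2.74% and 3.71% of 9083 genes with a test in each line had such calls. Of the 31 members tested in all lines, 10 (32.3%) were higher in one line and lower in another, against 17.0% of those 9083 genes. These were DDX60, DTX3L, HLA-B, HLA-C, IFIT1, IFITM2, ISG20, PSMB8, SAMD9 and UBE2L6. The count rests on all libraries, and some calls behind it were lost under alternatives. An example is DTX3L in PaTu 8988T (adjusted p = 0.0425, up to 0.135 over the alternatives). IFI6, PARP14 and USP18 had no call in any line.

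**Figure D2:**
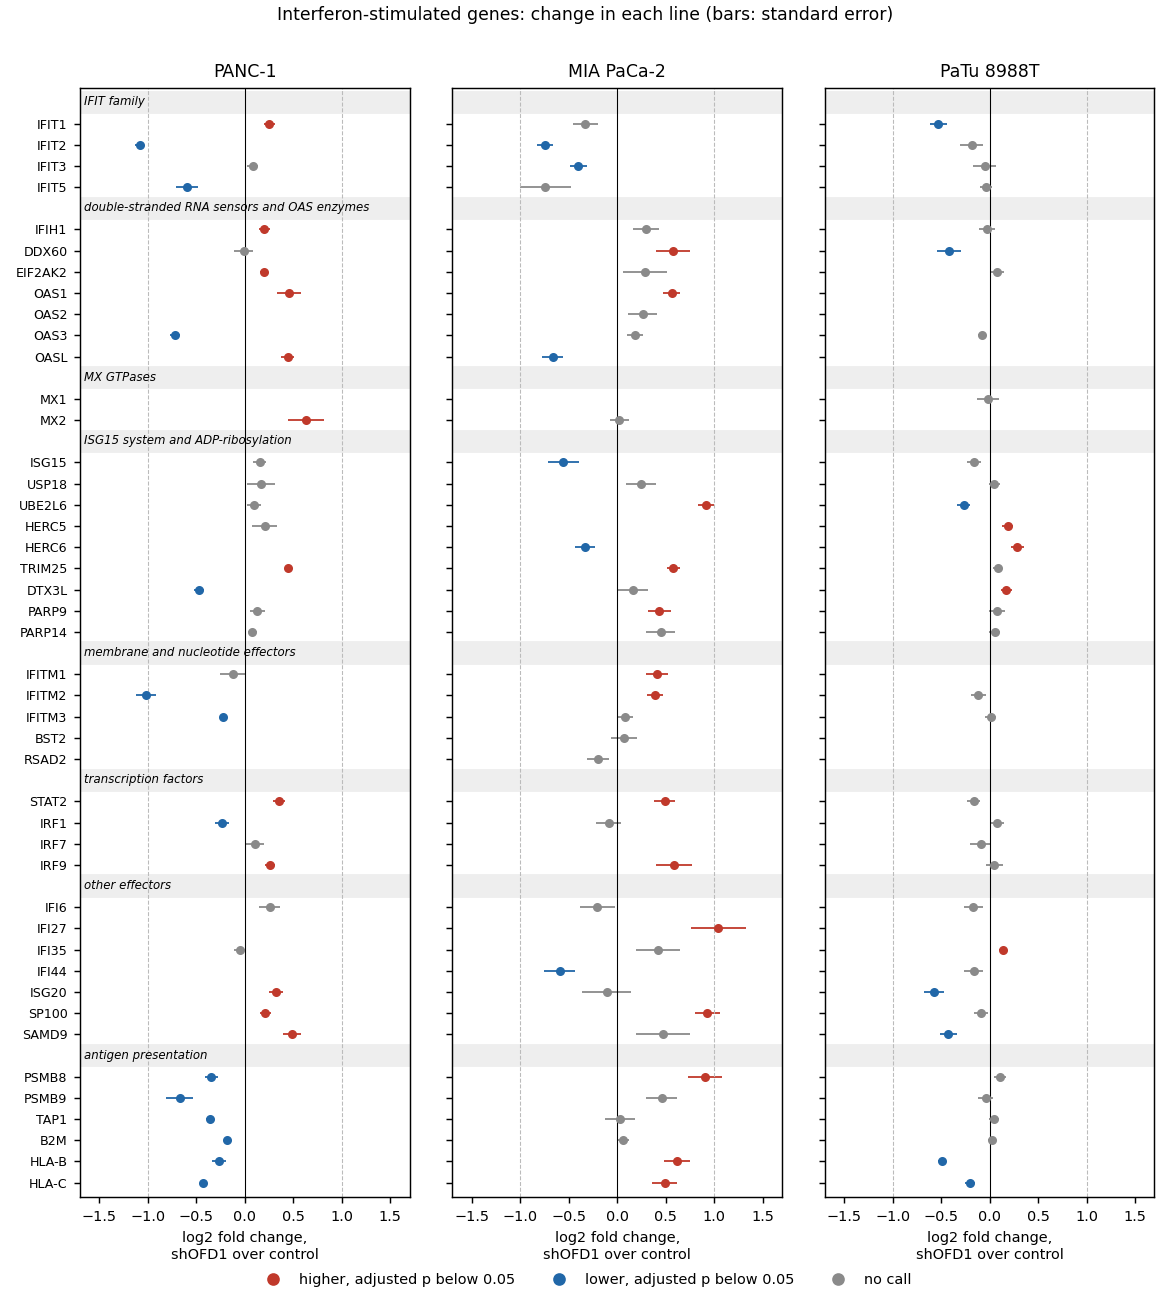
Log2 fold change of each tested interferon-stimulated gene, shOFD1 over control, with limma's standard error as bars, by role and line; red and blue mark calls at an adjusted p below 0.05 and dashed lines a 2-fold change. The 6 antigen presentation genes sit below 0 in PANC-1, where IFIT2 and IFITM2 reach the lower 2-fold line. In MIA PaCa-2 the 6 sit above 0, but 3 had no call, with TAP1 (0.03) and B2M (0.06) close to 0.

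Antigen presentation genes changed together in PANC-1. The group was drawn up with earlier results of these data known, so its counts beside those of all genes are descriptions. PSMB8, PSMB9, TAP1, B2M, HLA-B and HLA-C, which encode 2 subunits of the immunoproteasome, a subunit of the peptide transporter, and the light chain and 2 heavy chains of MHC class I, were all lower there (6 of 6, where 32.2% of all genes were lower), with libraries that did not overlap and a median of -0.35. HLA-C had 57.4, 60.9 and 56.0 FPKM in the PANC-1 controls and 43.7, 42.8 and 42.7 FPKM after knockdown (log2 fold change -0.43, standard error 0.0354, adjusted p = 2.24e-06). PSMB9 had 9.01, 8.54 and 6.49 FPKM in the controls and 4.09, 5.39 and 5.47 FPKM after knockdown (-0.67, standard error 0.137, adjusted p = 0.00137), the largest change of the 6. B2M was higher in level and smaller in change. It had 568, 560 and 559 FPKM in the controls and 492, 497 and 492 FPKM after knockdown (-0.19, standard error 0.0161, adjusted p = 3.07e-06). HLA-B had 10.8, 11.1 and 10.5 FPKM in the controls and 8.66, 8.31 and 10.0 FPKM after knockdown (-0.27, standard error 0.0690, adjusted p = 0.00567). TAP1 (-0.36) and PSMB8 (-0.34) were also lower.

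The same 6 genes took other directions in the other lines. In MIA PaCa-2, PSMB8, HLA-B and HLA-C were higher (3 of 6, where 18.7% of all genes were higher) and the median was 0.47. By limma 0 of the 6 were lower there, and 0 at an unadjusted p below 0.05 or with voom weights. PSMB8 had 2.55, 3.51 and 2.32 FPKM in the controls and 4.81, 5.87 and 5.08 FPKM after knockdown (0.91, standard error 0.175, adjusted p = 0.00757). HLA-B had 47.9, 65.1 and 46.5 FPKM in the controls and 78.9, 81.4 and 81.0 FPKM after knockdown (0.61, standard error 0.133, adjusted p = 0.0119). HLA-C had 31.8, 39.5 and 28.5 FPKM in the controls and 45.3, 44.7 and 49.0 FPKM after knockdown (0.49, standard error 0.128, adjusted p = 0.0230). For each of these, control replicate 2 was the highest control and still lay under every knockdown library. PSMB9 (0.46), TAP1 (0.03) and B2M (0.06) had no call with all 6 libraries. Without control replicate 2, 5 of the 6 were higher, where 35.1% of all genes were, with HLA-B at 0.77, HLA-C at 0.62, PSMB8 at 1.08, PSMB9 at 0.62 and TAP1 at 0.20, whereas B2M had 0.02 and no call. HLA-B lost its call without shOFD1 replicate 2 or 3 (adjusted p from 7.13e-08 to 0.0524 over the alternatives), and HLA-C lost it whenever a library other than control replicate 2 was left out (from 1.54e-05 to 0.0941). In PaTu 8988T, HLA-B and HLA-C were lower and the other 4 had no call, with a median of -0.01. HLA-B had 27.4, 27.6 and 27.5 FPKM in the controls and 19.2, 19.6 and 19.6 FPKM after knockdown (-0.50, standard error 0.0373, adjusted p = 1.60e-05). HLA-C had 94.8, 91.5 and 92.8 FPKM in the controls and 74.5, 87.2 and 81.5 FPKM after knockdown (-0.20, standard error 0.0536, adjusted p = 0.0154, and 0.0561 without shControl replicate 1, with a range from 0.00222 to 0.0573). B2M stood at 142, 137 and 136 FPKM in the controls and 138, 145 and 138 FPKM after knockdown (0.02, adjusted p = 0.657). CD68, the only marker of 9 for leukocytes above 1 FPKM in all lines, was lower in PANC-1 (-0.93, adjusted p = 7.50e-07) and PaTu 8988T (-0.35, adjusted p = 0.00229) and had 0.42 with an adjusted p of 0.0528 in MIA PaCa-2. The summed level of the 9 markers lay between 33.6 and 38.7 FPKM in the PANC-1 controls and between 17.4 and 20.5 FPKM after knockdown. Nearly all of that was CD68 (means of 34.6 and 18.1 FPKM). For MIA PaCa-2 and PaTu 8988T the sums were as follows. The sum lay between 49.5 and 67.5 FPKM in the MIA PaCa-2 controls and between 73.2 and 77.1 FPKM after knockdown. In PaTu 8988T it lay between 13.6 and 14.0 FPKM in the controls and between 9.86 and 11.8 FPKM after knockdown. CD3E, MS4A1 and NKG7, defining markers of lymphocytes, were listed at 0 throughout. The part of these markers in the result was not tested. HLA-B and HLA-C are close relatives in sequence and overlap in the annotation, and exons of PSMB8 and PSMB9 overlap each other and an antisense RNA, so how the counting divided their reads bears on each value.

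**Figure D3:**
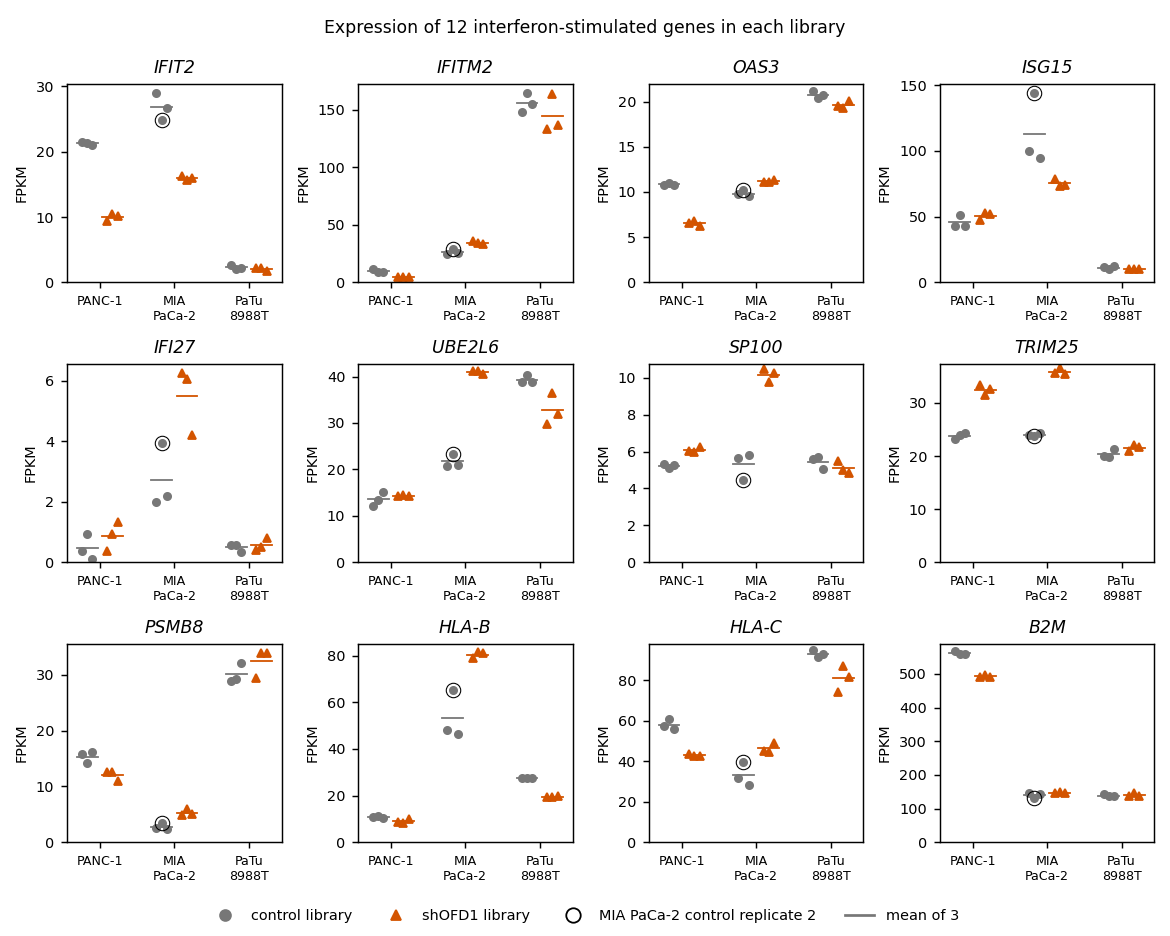
FPKM of 12 interferon-stimulated genes in each control library (grey circles) and shOFD1 library (orange triangles) of each line, with the mean of 3 libraries as a line and MIA PaCa-2 control replicate 2 ringed; levels are to be read within a line. HLA-B lies lower in the knockdown libraries of PANC-1 and PaTu 8988T and higher in those of MIA PaCa-2, and IFIT2 is lower in the first 2 lines shown.

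The IFIT proteins bind foreign RNA and block its translation, and their genes lie side by side on chromosome 10. IFIT1 alone of the 4 was higher in a line, PANC-1, and IFIT2 was lower in both PANC-1 and MIA PaCa-2. IFIT2 had 21.5, 21.3 and 21.1 FPKM in the PANC-1 controls and 9.45, 10.4 and 10.2 FPKM after knockdown, so every knockdown library held under 0.5 times the level of any control (-1.08, standard error 0.0466, adjusted p = 1.89e-08). The MIA PaCa-2 controls had 29.0, 24.9 and 26.7 FPKM of IFIT2 and the knockdown libraries 16.3, 15.7 and 15.9 FPKM (-0.74, standard error 0.0853, adjusted p = 0.00112). In PaTu 8988T, where IFIT2 had 2.58, 2.08 and 2.23 FPKM in the controls and 2.13, 2.16 and 1.74 FPKM after knockdown, the libraries overlapped (-0.19, adjusted p = 0.219). IFIT1, whose ISRE match is shown above, went both ways. It had 5.70, 5.42 and 5.68 FPKM in the PANC-1 controls and 6.86, 6.52 and 6.68 FPKM after knockdown (0.25, standard error 0.0572, adjusted p = 0.00264). It was lower in PaTu 8988T, from 3.28, 3.21 and 2.85 FPKM to 2.21, 2.14 and 2.03 FPKM (-0.53, standard error 0.0837, adjusted p = 0.00116). Its MIA PaCa-2 controls had 31.2, 22.9 and 30.5 FPKM and its knockdown libraries 21.9, 22.6 and 22.0 FPKM, which did not overlap but missed the threshold (-0.33, standard error 0.129, adjusted p = 0.0809). IFIT3 was lower in MIA PaCa-2 (-0.40, adjusted p = 0.0131, ranging from 4.82e-06 to 0.0653) and IFIT5 in PANC-1 (-0.59, adjusted p = 0.00100). Without MIA PaCa-2 control replicate 2, all 4 IFIT genes were lower in that line, as were 40.0% of all genes, from -0.47 for IFIT1 to -1.06 for IFIT5.

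The genes for sensors of double-stranded RNA and for the oligoadenylate synthetases, which make the activator of RNase L, had a median of 0.20 in PANC-1, 0.29 in MIA PaCa-2 and -0.05 in PaTu 8988T. In PANC-1, 4 of 6 were higher and 1 lower, where 40.1% of all genes were higher and 32.2% lower. OAS1 had 1.45, 1.72 and 1.29 FPKM in the controls and 2.07, 1.91 and 2.21 FPKM after knockdown (0.45, standard error 0.127, adjusted p = 0.00877). OAS3, its neighbour on chromosome 12, fell from 10.8, 11.0 and 10.7 FPKM to 6.54, 6.82 and 6.23 FPKM (-0.72, standard error 0.0532, adjusted p = 9.71e-07). OASL (0.44), EIF2AK2 (0.20), which encodes the RNA-activated kinase PKR, and IFIH1 (0.20), which encodes the sensor MDA5, were higher. In MIA PaCa-2, OAS1 rose from 5.13, 5.76 and 5.62 FPKM to 8.26, 7.97 and 8.23 FPKM (0.56, standard error 0.0916, adjusted p = 0.00412), while OASL fell from 30.4, 38.9 and 31.5 FPKM to 21.4, 20.9 and 20.9 FPKM (-0.66, standard error 0.109, adjusted p = 0.00413). OASL thus had opposite calls in the lines where it was tested. DDX60, a helicase that aids RNA sensing, was higher in MIA PaCa-2 (0.57, adjusted p = 0.0408, ranging from 0.00201 to 0.124) and lower in PaTu 8988T (-0.42, adjusted p = 0.0252, ranging from 0.00485 to 0.102). EIF2AK2 had 15.8, 8.54 and 15.1 FPKM in the MIA PaCa-2 controls and 15.2, 15.6 and 15.7 FPKM after knockdown, and its log2 fold change went from 0.29 to 0.00 without control replicate 2. In that fit, 4 of the 7 were higher and 1 lower, where 35.1% of all genes were higher and 40.0% lower, with IFIH1 at 0.17 and OAS3 at 0.21 among the higher genes. OAS1 did not reach 1 FPKM in PaTu 8988T, where it had at most 0.323 FPKM, and there DDX60 was the only called gene of 4 tested.

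ISG15 itself, the most abundant member of its conjugation system in PANC-1 and MIA PaCa-2, did not rise by the test in any line. It had 43.0, 51.2 and 42.8 FPKM in the PANC-1 controls and 47.4, 52.9 and 51.8 FPKM after knockdown (0.15, standard error 0.0678, adjusted p = 0.0646, with 0.00196 without shControl replicate 2, 0.0300 without shOFD1 replicate 1, and a range up to 0.205). ISG15 was lower in MIA PaCa-2, from 99.9, 144 and 94.2 FPKM to 78.4, 73.0 and 74.4 FPKM (-0.56, standard error 0.160, adjusted p = 0.0322). Its highest control was replicate 2, and leaving that library out gave -0.37 (adjusted p = 3.33e-05, of a range up to 0.105, reached without shOFD1 replicate 2). The PaTu 8988T values were 11.6, 10.0 and 12.3 FPKM in the controls and 10.2, 9.95 and 10.0 FPKM after knockdown (-0.16, standard error 0.0713, adjusted p = 0.103, and 0.0162 without shControl replicate 2, of a range up to 0.327). UBE2L6, the conjugating enzyme for ISG15, had the largest log2 fold change of the group. It had 20.8, 23.4 and 21.0 FPKM in the MIA PaCa-2 controls and 41.2, 41.3 and 40.5 FPKM after knockdown (0.92, standard error 0.0780, adjusted p = 0.000423). UBE2L6 was lower in PaTu 8988T, from 38.7, 40.2 and 38.8 FPKM to 29.8, 36.4 and 32.0 FPKM (-0.27, standard error 0.0654, adjusted p = 0.0105), and in PANC-1 it had no call (0.09, adjusted p = 0.276). TRIM25, a ligase of ubiquitin and ISG15, was higher in PANC-1 (0.45, adjusted p = 2.38e-06) and in MIA PaCa-2, where it rose from 23.9, 23.7 and 24.3 FPKM to 35.6, 36.5 and 35.5 FPKM (0.58, adjusted p = 0.00115). In PaTu 8988T it had no call (0.08, adjusted p = 0.176). USP18, which removes ISG15 and restrains interferon receptor signalling, had no call in any line with all libraries. In PaTu 8988T, HERC5 (0.19), HERC6 (0.28) and DTX3L (0.17) were higher. DTX3L was lower in PANC-1 (-0.47, adjusted p = 1.21e-05) and HERC6 in MIA PaCa-2 (-0.33, adjusted p = 0.0438, ranging from 0.000578 to 0.164). The exons of DTX3L and its partner PARP9 overlap on opposite strands, and whether the counting used strand is not given in the sources used here.

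The IFITM proteins hold back viral entry at membranes, and their genes are near-identical neighbours on chromosome 11, so reads may be split between them. IFITM2 had 11.8, 8.90 and 8.70 FPKM in the PANC-1 controls and 4.65, 4.90 and 4.64 FPKM after knockdown (-1.02, standard error 0.105, adjusted p = 1.13e-05). The control libraries spread more than the knockdown ones, and without shControl replicate 1 its log2 fold change was -0.88. IFITM3 moved less there, from 633, 630 and 621 FPKM to 537, 536 and 536 FPKM (-0.23, adjusted p = 6.05e-07). In MIA PaCa-2, IFITM2 was higher, from 25.0, 28.6 and 25.4 FPKM to 35.7, 34.2 and 33.5 FPKM (0.39, adjusted p = 0.0115, ranging from 7.14e-06 to 0.0645), and so was IFITM1 (0.41, adjusted p = 0.0296, ranging from 2.23e-07 to 0.102). IFITM1 lost that call with no filter, with the replicate block and whenever a library other than control replicate 2 was left out. Neither IFITM2 nor IFITM3 was called in PaTu 8988T. MX2, whose product restricts retroviruses, was higher in PANC-1 at a low level, from 1.15, 1.01 and 0.696 FPKM to 1.29, 1.48 and 1.74 FPKM (0.63, standard error 0.187, adjusted p = 0.0118, and 0.0505 without shOFD1 replicate 3, of a range from 0.00196). MX2 had no call in MIA PaCa-2 (0.02), and MX1 none in PaTu 8988T, with 0.955, 0.996 and 1.12 FPKM in the controls and 0.956, 1.01 and 1.05 FPKM after knockdown (-0.02, standard error 0.115, adjusted p = 0.903).

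Among the transcription factors of the pathway, STAT2 and IRF9 were higher in PANC-1 and MIA PaCa-2. STAT2 had 9.43, 8.66 and 9.77 FPKM in the PANC-1 controls and 12.1, 12.2 and 11.3 FPKM after knockdown (0.35, standard error 0.0590, adjusted p = 0.000387). Its MIA PaCa-2 controls had 4.09, 4.77 and 3.98 FPKM and its knockdown libraries 5.81, 6.24 and 6.03 FPKM (0.49, standard error 0.108, adjusted p = 0.0125). IRF9 had 14.8, 14.0 and 14.2 FPKM in the PANC-1 controls and 17.6, 15.9 and 17.99 FPKM after knockdown (0.26, standard error 0.0532, adjusted p = 0.00149). Its MIA PaCa-2 controls had 6.72, 11.3 and 8.51 FPKM and the knockdown libraries 14.0, 12.3 and 12.8 FPKM (0.58, standard error 0.186, adjusted p = 0.0447). The MIA PaCa-2 calls of both were lost whenever a shOFD1 library was left out, and for IRF9 also without control replicate 1 or 3, with an adjusted p of up to 0.0654 for STAT2 and 0.144 for IRF9. Without control replicate 2, the values there were 0.57 (adjusted p = 3.08e-05) and 0.77 (adjusted p = 0.000122). In PaTu 8988T, STAT2 (-0.17, standard error 0.0636, adjusted p = 0.0634) and IRF9 (0.05, standard error 0.0854, adjusted p = 0.687) had no call. IRF1, one of the factors with a GAS match above, was lower in PANC-1, from 5.30, 5.30 and 5.88 FPKM to 4.85, 4.69 and 4.37 FPKM (-0.24, standard error 0.0720, adjusted p = 0.0127, and 0.0543 without shControl replicate 3, of a range from 0.0106). It had no call in MIA PaCa-2 (-0.09, standard error 0.125, adjusted p = 0.597) or PaTu 8988T (0.07, standard error 0.0755, adjusted p = 0.461). IRF7, which amplifies interferon production, had no call in PANC-1 (0.11, standard error 0.0882, adjusted p = 0.302) or PaTu 8988T (-0.09, standard error 0.110, adjusted p = 0.538).

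Of the remaining effectors, SP100, a nuclear body protein, and IFI27, a small mitochondrial protein, rose most in MIA PaCa-2. SP100 had 5.65, 4.46 and 5.80 FPKM in the controls and 10.5, 9.75 and 10.2 FPKM after knockdown (0.93, standard error 0.124, adjusted p = 0.00195). IFI27 had 1.99, 3.94 and 2.20 FPKM in the controls and 6.25, 6.07 and 4.20 FPKM after knockdown (1.04, standard error 0.283, adjusted p = 0.0267, ranging from 8.80e-05 to 0.0977). Control replicate 2 was nearly as high as the lowest knockdown library, and 1.34 was the log2 fold change once that library was left out. IFI44 was lower in MIA PaCa-2, from 4.60, 3.36 and 4.99 FPKM to 2.90, 2.76 and 2.69 FPKM (-0.60, adjusted p = 0.0265, ranging from 2.12e-05 to 0.0959). ISG20, an exonuclease for RNA, and SAMD9, an antiviral factor, were higher in PANC-1 and lower in PaTu 8988T. ISG20 had 3.72, 3.87 and 3.83 FPKM in the PANC-1 controls and 4.84, 5.09 and 4.47 FPKM after knockdown (0.32, adjusted p = 0.00238). Its PaTu 8988T level fell from 2.36, 1.99 and 2.26 FPKM to 1.28, 1.53 and 1.52 FPKM (-0.58, standard error 0.106, adjusted p = 0.00257). SAMD9 had log2 fold changes of 0.49 in PANC-1 (adjusted p = 0.00110) and -0.43 in PaTu 8988T (standard error 0.0882, adjusted p = 0.00451). SP100 was higher in PANC-1 too, but by less (0.21, adjusted p = 0.00786), and IFI35 rose in PaTu 8988T (0.14, adjusted p = 0.0205).

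The MIA PaCa-2 counts depended on which libraries were kept. Without control replicate 2, 24 members were higher (58.5%) and 9 lower (22.0%), 8 had no call and the median was 0.20. In the same fit 35.1% of all genes were higher and 40.0% lower, with a median of -0.03. The 20 members called with all libraries all kept their call and direction, and 13 were added, among them IFIT1 and IFIT5 as lower and IFI35, BST2 and TAP1 as higher genes. ISG20 had opposite signs in the fits, at -0.11 with no call and 0.20 with a call. Leaving out shControl replicate 1 gave 9 higher members. Leaving out shOFD1 replicate 1, 2 or 3 gave 6, 5 or 7 higher and 2, 3 or 2 lower members. IFIT2, OAS1, OASL, PSMB8, SP100, TRIM25 and UBE2L6 were called under every alternative in which they were tested. In PANC-1, 23 of the 25 called members were called under every such alternative, all but IRF1 and MX2. In PaTu 8988T, HERC6, HLA-B, IFIT1, ISG20, SAMD9 and UBE2L6 were. There the 4 higher members became 1 without shControl replicate 1 or 2 or shOFD1 replicate 3.

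**Figure D4:**
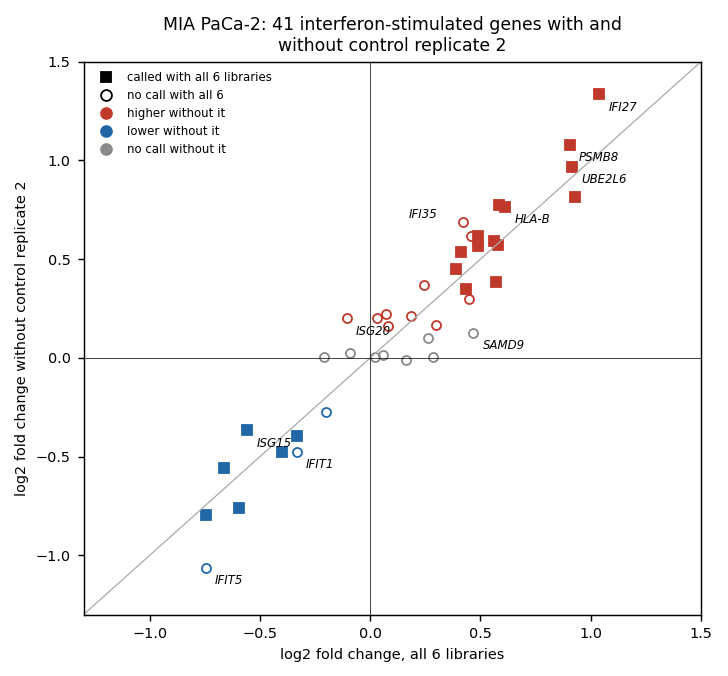
Log2 fold change of the 41 tested members in MIA PaCa-2 with all 6 libraries (x axis) and without control replicate 2 (y axis); filled squares were called with all 6 libraries, colours give the call without the library, and the grey line marks equal values. All filled squares keep their side of 0, and IFIT5 and IFI27 lie furthest out, at -1.06 and 1.34 on the y axis.

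Calls were also set beside the ISRE letters. Of the members with a promoter entry, those with the letters had median log2 fold changes of 0.08 in PANC-1, 0.08 in MIA PaCa-2 and -0.03 in PaTu 8988T. Those without had 0.09, 0.53 and -0.04. In MIA PaCa-2, with all 6 libraries, 5 of 23 tested members with the letters were higher and 3 lower. Without the letters, 8 of 12 were higher and 1 lower, where 18.7% of all genes were higher and 21.7% lower. In PANC-1 the counts were 5 higher and 7 lower of 20 with the letters, and 5 higher and 4 lower of 11 without. Of all genes tested there, 40.1% were higher and 32.2% lower. These are descriptions, and the difference between members with and without the letters was not tested.

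The difference between lines was tested itself, as an interaction in a fit of all 18 libraries. Each line had its own controls, but a line enters more than 1 pair. The fit takes a single spread per gene over all lines, so the MIA PaCa-2 libraries bear on the p-values of every pair. Between PANC-1 and MIA PaCa-2, 19 of the 31 members (61.3%) changed differently, against 43.4% of 9083 genes. The change was higher in MIA PaCa-2 for 16 of them (51.6%, against 17.3% of all genes) and higher in PANC-1 for 3, IFIT1, IFIT3 and ISG15 (9.68%, against 26.1%). All 6 antigen presentation members were among the 16. Between MIA PaCa-2 and PaTu 8988T, 17 members differed (54.8%, against 52.9%), 14 with the higher change in MIA PaCa-2 (45.2%, against 21.8%) and 3, the genes IFIT2, IFIT3 and IFIT5, with the higher change in PaTu 8988T (9.68%, against 31.0%). Between PANC-1 and PaTu 8988T, 14 differed (45.2%, against 35.8%), with the higher change in PANC-1 for 6 (19.4%, against 17.1%) and in PaTu 8988T for 8 (25.8%, against 18.7%). Without MIA PaCa-2 control replicate 2, the counts were 25, 22 and 24 in the same order of pairs, and the shares of all genes rose as well. They were 80.6% of the members against 64.3% of all genes, 71.0% against 70.9%, and 77.4% against 59.0%. The last pair holds no MIA PaCa-2 library, so its count moved through the shared spread alone. In that fit the change was higher in MIA PaCa-2 than in PANC-1 for 19 members (61.3%, against 25.1%) and lower for 6 (19.4%, against 39.2%). It was higher in MIA PaCa-2 than in PaTu 8988T for 18 (58.1%, against 29.5%) and lower for 4 (12.9%, against 41.5%). Of the 24 that differed between PANC-1 and PaTu 8988T, 11 had the higher change in PANC-1 (35.5%, against 29.7%) and 13 in PaTu 8988T (41.9%, against 29.3%). TRIM25 did not differ between PANC-1 and MIA PaCa-2 by the test (difference -0.13, adjusted p = 0.102), and it differed between each of them and PaTu 8988T (0.36, adjusted p = 0.000292, and 0.50, adjusted p = 8.10e-06).

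The rest of the pathway was read from lists of 7 ligands, 9 receptors and kinases, 13 sensors and adaptors, 9 negative regulators and 13 further antigen presentation genes. None of the 7 ligands, a list with 1 alpha interferon and without interferon gamma, reached the level for a test in any line. IFNB1, IFNA2 and IFNK were listed at 0 in all 18 libraries. IFNL1, a type III interferon, had 0.251, 0.0349 and 0.113 FPKM in the PANC-1 controls and 0.794, 0.671 and 0.978 FPKM after knockdown. With no filter on low values it was called higher there (2.07, adjusted p = 0.00177). So was IFNL3 (0.85, adjusted p = 0.0294), with 0 FPKM in the controls and 0.181, 0.0449 and 0.0427 FPKM after knockdown. The IFNL3 values lie near the added 0.1, so this call rests on very little signal. IFNL2 (-0.01) and IFNE (0.59, adjusted p = 0.145) had no call in that fit. IFNL2 had 0, 0 and 0.245 FPKM in the PANC-1 controls and 0, 0.0322 and 0.153 FPKM after knockdown. How the counting divided reads between IFNL2 and IFNL3 was not tested. IFNL1 and IFNL3 were listed at 0 in PaTu 8988T. The MIA PaCa-2 libraries of IFNL1 overlapped, with 0.495 to 0.857 FPKM in the controls and 0.698 to 1.02 FPKM after knockdown.

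JAK1, a kinase shared by the interferon receptors, was higher in all 3 lines, as were 2.74% of all genes. JAK1 had 59.1, 61.5 and 62.3 FPKM in the PANC-1 controls and 106, 107 and 105 FPKM after knockdown (0.80, standard error 0.0280, adjusted p = 5.02e-09). It was also higher in MIA PaCa-2, from 21.9, 18.1 and 21.8 FPKM to 31.0, 31.2 and 32.4 FPKM (0.61, adjusted p = 0.00367), and in PaTu 8988T, from 28.7, 29.3 and 29.1 FPKM to 34.2, 33.1 and 32.1 FPKM (0.19, adjusted p = 0.00468). IFNAR1, a chain of the type I receptor, was lower in PANC-1 (-0.44, adjusted p = 0.000866) and PaTu 8988T (-0.41, adjusted p = 0.00239), and had -0.45 in MIA PaCa-2 with an adjusted p of 0.105. IFNAR2 had no call in any line. In all, 2 of 7 tested receptor and kinase genes were higher and 3 lower in PANC-1, 3 of 9 higher in MIA PaCa-2 with none called lower, and 1 higher and 2 lower of 8 in PaTu 8988T. The share of all genes called higher was 40.1% for PANC-1, 18.7% for MIA PaCa-2 and 20.9% for PaTu 8988T. The share called lower was 32.2%, 21.7% and 18.5% in the same order. IFNLR1, the type III receptor chain, passed 2-fold in MIA PaCa-2, from 0.622, 0.690 and 0.462 FPKM to 1.64, 1.22 and 1.49 FPKM (1.17, standard error 0.183, adjusted p = 0.00349). In PANC-1 IFNLR1 was under the level for a test, and with no filter it was called higher (0.79, adjusted p = 0.0266). It had no call in PaTu 8988T (0.11, adjusted p = 0.433).

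Of the sensors and adaptors upstream of interferon, 4 of 10 were higher and 5 lower in PANC-1, 1 of 9 lower and none higher in MIA PaCa-2, and 2 of 9 higher and 1 lower in PaTu 8988T. Set beside the all-gene shares just given, the higher share in PANC-1 (4 of 10, against 40.1%) was at the background. The lower share there (5 of 10, against 32.2%) was above it, over few genes. In PANC-1, CGAS, a sensor of DNA in the cytoplasm, fell from 13.0, 13.6 and 12.3 FPKM to 6.77, 7.48 and 7.42 FPKM (-0.84, standard error 0.0589, adjusted p = 7.04e-07). STING1, its adaptor, fell from 3.69, 4.07 and 3.51 FPKM to 2.35, 1.49 and 1.55 FPKM (-1.05, standard error 0.155, adjusted p = 0.000159). IRF3, the factor they activate, was lower by less (-0.25, adjusted p = 0.000275). Other genes of DNA sensing went the other way: IFI16, which also binds DNA (0.32, adjusted p = 0.00923), and TBK1, the kinase that acts on IRF3 (0.29, adjusted p = 4.39e-05), were higher in PANC-1, and both were picked after their values were seen. In MIA PaCa-2, CGAS (-0.39, adjusted p = 0.286, and -0.72 with an adjusted p of 1.03e-05 without control replicate 2, of a range up to 0.572), STING1 (-0.08) and IRF3 (-0.33) had no call. CGAS had none in PaTu 8988T (0.11). RIG-I, the sensor of viral RNA ends listed as DDX58, had no call in any line, with log2 fold changes of 0.05, 0.22 and 0.02. Of the 9 negative regulators, SOCS1, an inhibitor of JAK kinases, passed 2-fold in PANC-1, from 0.673, 0.634 and 0.752 FPKM to 2.83, 1.88 and 1.27 FPKM (1.35, standard error 0.239, adjusted p = 0.000557). The MIA PaCa-2 libraries of SOCS1 overlapped, with 3.32, 7.49 and 3.66 FPKM in the controls and 7.99, 6.85 and 7.46 FPKM after knockdown (0.71, adjusted p = 0.0990). By count, 3 of the 9 were higher and 2 lower in PANC-1, 1 of 9 was lower in MIA PaCa-2, and 1 of 8 was higher in PaTu 8988T, each a smaller share than over all genes.

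The further antigen presentation genes were called lower more often than higher in each line. This list too was drawn up with earlier results of these data known, so its counts are descriptions. In PANC-1, 10 of 11 tested were lower, where 32.2% of all genes were, with a median of -0.70, and CALR, the chaperone calreticulin, passed 2-fold, from 453, 452 and 459 FPKM to 216, 218 and 211 FPKM (-1.08, standard error 0.0193, adjusted p = 7.53e-11). Of 11 tested in MIA PaCa-2, 4 were lower and none higher, where 21.7% of all genes were lower and 18.7% higher, with a median of -0.15. There TAP2, the partner of TAP1 in the peptide transporter, fell from 11.2, 15.9 and 10.6 FPKM to 5.87, 5.48 and 5.64 FPKM (-1.11, standard error 0.163, adjusted p = 0.00276). CALR also passed 2-fold there, from 497, 670 and 497 FPKM to 236, 235 and 232 FPKM (-1.23, adjusted p = 0.000668). In PaTu 8988T, 7 of 12 were lower and 1 higher, where 18.5% of all genes were lower and 20.9% higher, with a median of -0.15. CALR was lower in all 3 lines, though by -0.16 in PaTu 8988T (adjusted p = 0.00614).

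**Figure D5:**
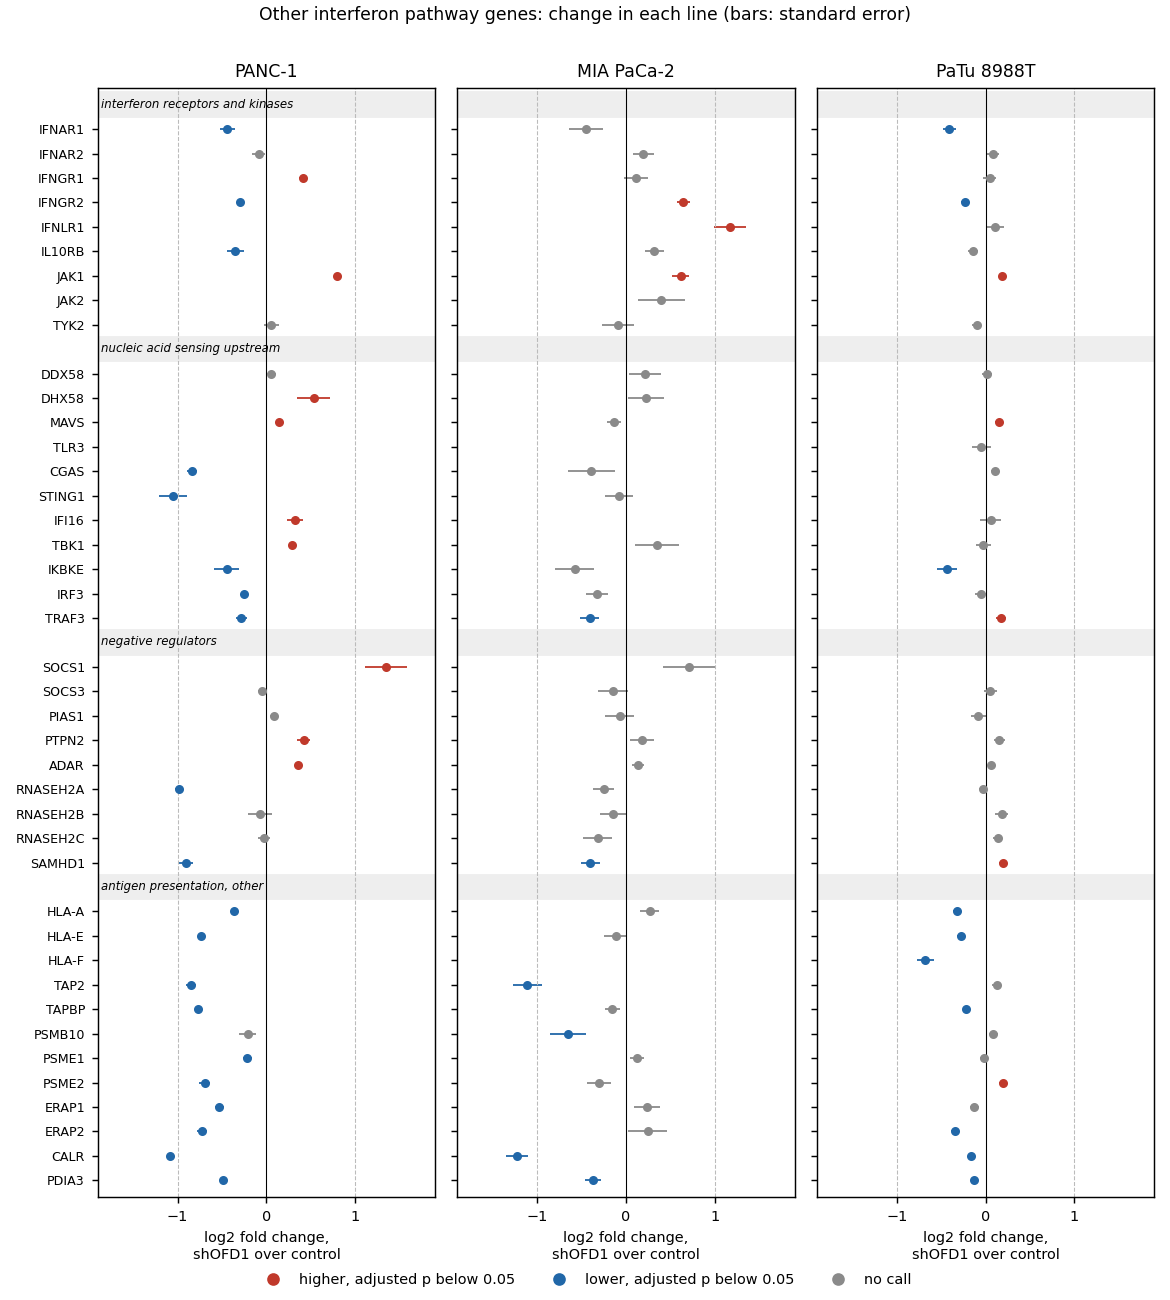
Log2 fold change of the tested genes of the interferon pathway lists outside the 48 members, shOFD1 over control, with limma's standard error as bars, by list and line; colours mark calls as for the members and dashed lines a 2-fold change. JAK1 is called higher in each line, and the antigen presentation genes lie left of 0 in PANC-1.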

How the data were processed

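RNA-seq libraries were made from 3 cell lines, 3 control and 3 knockdown libraries each. Per the study's methods, the authors aligned reads with HISAT2, counted them with HTSeq-count, deposited FPKM and tested counts with DESeq2. The builds listed in the submitters' processing notes are hg38, mm10 and GRCm38, with no role given. Labels and methods name different extraction and library kits. Since the deposited values are FPKM, limma 3.58.1 (R 4.3.3) was used here on log2(FPKM + 0.1), with a variance trend, in each line over genes with a mean of at least 1 FPKM. P-values were adjusted by Benjamini-Hochberg over all genes tested in the line. Differences between lines were tested in 1 fit of 18 libraries, with a single spread per gene for all lines. Reads were worked out from the FPKM as whole numbers, within 0.01 reads, for 100% of genes above 0. A factor common to all libraries of a line goes unseen in this. IFIT2 thus came out with 1696.5 bases in MIA PaCa-2 against 3393 in the other lines. BST2, IFI35 and B2M had half-base lengths in PaTu 8988T, and for such genes the reads are too few. The recovered reads gave the depths and an alternative with voom weights, which called 4463 genes higher and 3578 lower in PANC-1. For MIA PaCa-2 these counts were 2032 and 2284, and for PaTu 8988T 2342 and 2096. The scripts were tested on simulated data, which held no outlying library such as MIA PaCa-2 control replicate 2.

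Full statistics were given for the 6 called members with the largest change in each line whose groups did not overlap, and for ISG15, IFIT1, MX1, OAS1, STAT2, IRF1, IRF7, IRF9, B2M, HLA-B and HLA-C where tested. Every other tested member could be named within its role. The members and lists were chosen with earlier results of these data known. Of 54 pathway genes searched, 51 were found, and 1 further gene of these lists is not reported here. Positions and exon overlaps come from GENCODE gene models on GRCh38. Alternatives were another pseudocount, other filters, libraries set to an equal median, no variance trend, a replicate block, voom weights and each library left out.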

Additional observations from a re-analysis of the deposited data

Results flagged for a closer look

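For 6 members, the change after knockdown lay on opposite sides of 0 in 2 lines and the difference itself passed the test in the fit of all 18 libraries. Between PANC-1 and MIA PaCa-2, the change in PANC-1 minus that in MIA PaCa-2 was -1.41 for IFITM2 (standard error 0.143, adjusted p = 1.62e-06), -1.25 for PSMB8 (standard error 0.174, adjusted p = 3.74e-05) and -1.13 for PSMB9 (standard error 0.212, adjusted p = 0.000505). Between MIA PaCa-2 and PaTu 8988T, the difference was 1.11 for HLA-B (standard error 0.136, adjusted p = 5.71e-06), 1.02 for SP100 (standard error 0.125, adjusted p = 5.77e-06) and 1.18 for UBE2L6 (standard error 0.112, adjusted p = 3.71e-07). Without MIA PaCa-2 control replicate 2, the same differences were -1.47, -1.42, -1.29, 1.26, 0.90 and 1.24. Over all alternatives the adjusted p of these 6 differences was at most 0.00287, by limma throughout. These are, of the 31 members tested in all 3 lines, those whose difference passed 1 on the log2 scale with opposite signs in the lines compared. OASL, with 0.44 in PANC-1 and -0.66 in MIA PaCa-2, was under the level for a test in PaTu 8988T and so was not in that fit. IFITM2, HLA-B, PSMB8 and PSMB9 could share reads with related or overlapping genes.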

How the results depend on the processing

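No call of a member changed sign under any alternative run. Over the members given with full statistics, the settings other than leaving out a library kept 338 values on their side of the threshold, moved 2 past it and 7 back across it. Leaving out a library kept 236, moved 6 past it and 28 back. With a pseudocount of 1, members past 2-fold numbered 1 in PANC-1 and 0 in MIA PaCa-2, and the MIA PaCa-2 median was 0.23. With no filter on low values, 4 members passed 2-fold in PANC-1 and 0 in MIA PaCa-2, the PANC-1 median was 0.12, 3 members were lower in MIA PaCa-2, and OFD1 in MIA PaCa-2 had -0.61 with an adjusted p of 0.0504. With a mean of at least 5 FPKM, the PANC-1 median was 0.015, 0 members passed 2-fold in MIA PaCa-2, 3 were lower in PaTu 8988T, and 10 differed between MIA PaCa-2 and PaTu 8988T, since fewer genes were tested. Setting the libraries to an equal median gave a MIA PaCa-2 median of 0.30. The cause of the other shifts was not tested.

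Leaving out each library in turn gave 12 to 15 higher and 12 to 13 lower members in PANC-1, with 1 to 2 past 2-fold, a median of 0.07 to 0.11 and OFD1 at -1.13 to -0.99. In MIA PaCa-2 it gave 5 to 24 higher and 2 to 9 lower, 0 to 3 past 2-fold, a median of 0.20 to 0.30 and OFD1 at -0.76 to -0.52. In PaTu 8988T it gave 1 to 5 higher and 5 to 9 lower, 0 past 2-fold, a median of -0.050 to 0.00214 and OFD1 at -1.15 to -1.06. Members whose change differed numbered 15 to 25 between PANC-1 and MIA PaCa-2, 10 to 24 between PANC-1 and PaTu 8988T, and 13 to 22 between MIA PaCa-2 and PaTu 8988T. Over all genes in MIA PaCa-2, 2012 were higher and 2338 lower with all libraries, 3780 and 4302 without shControl replicate 2, and 1141 and 1348, 1126 and 1348, and 1126 and 1317 without shOFD1 replicates 1, 2 and 3.

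Replicate numbers gave no sign of pairing the samples. Correlations of same-numbered libraries ran from -0.111 to 0.130, and those of differently numbered libraries from -0.231 to 0.226. With 3 libraries per group, such correlations cannot exclude a pairing. With the replicate number as a block, MIA PaCa-2 had 10 higher and 5 lower members.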
